A study of Mus musculus with 6 samples.

Results

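The miR-106b-25 cluster is a group of mouse microRNA (miRNA) genes, Mir106b, Mir93 and Mir25, carried within the protein-coding gene Mcm7. The arms described here are mmu-miR-106b-5p, mmu-miR-106b-3p, mmu-miR-93-5p, mmu-miR-93-3p and mmu-miR-25-3p (the prefix for mouse is left out from here on). They were taken from a fixed list of products of the 3 genes, which leaves out miR-25-5p, and not because of any measured value. They are 5 of the 1881 mouse miRNAs on the array, and all 5 were also listed in the authors' value table. Exosomes, small vesicles released by cells, were collected from the supernatant of RAW 264.7 cells, a mouse macrophage-like line, and their RNA was hybridised to one-colour Agilent miRNA arrays. In the LPS group (n = 3) the cells had received lipopolysaccharide, a cell wall component of Gram-negative bacteria, at 2 µg/mL in complete medium for 72 h. In the Con group (n = 3) the exosomes came from untreated cells of the same line, whose culture time the labels do not give separately. Nothing in the labels says whether replicates were separate cultures, and the spread that p-values measure here may be technical only. All samples are from 1 cell line, and the vesicles were separated by size exclusion.

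Mcm7 encodes a subunit of the helicase that opens DNA for replication, and the cluster lies in an intron of it, so that the hairpins are generally transcribed together with their host. Each hairpin is cut into a duplex from which the Argonaute protein usually keeps the more abundant guide arm, while the opposite, passenger arm is mostly degraded. A miRNA finds its targets chiefly through the seed, bases 2 to 8 from its 5′ end. The miR-106b-25 cluster is a paralogue of the miR-17-92 and miR-106a-363 clusters, and this family is known for repressing cell cycle inhibitors, such as p21 (Cdkn1a), and the pro-apoptotic protein Bim (Bcl2l11).

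The mature sequences are shown because the seed divides the arms into families. They are RefSeq sequences of assembly GRCm38.p6, written 5′ to 3′ with the seed in capitals, and all 5 arms matched by name.
miR-106b-5p: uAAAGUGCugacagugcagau
miR-93-5p: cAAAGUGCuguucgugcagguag
miR-25-3p: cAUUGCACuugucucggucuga
miR-106b-3p: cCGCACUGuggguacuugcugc
miR-93-3p: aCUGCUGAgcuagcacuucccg
miR-106b-5p and miR-93-5p share the seed AAAGUGC, which is also that of miR-17-5p and miR-20a-5p, and over their first 21 bases they are alike at 16. miR-25-3p has the seed AUUGCAC, shared with miR-92a-3p. The passenger arms miR-106b-3p and miR-93-3p have a seed each that neither family uses.

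The hairpins are shown to place each arm in its precursor, with the mature arms in capitals. All 3 lie on the minus strand of chromosome 5 inside Mcm7 in GRCm38.p6.
Mir106b: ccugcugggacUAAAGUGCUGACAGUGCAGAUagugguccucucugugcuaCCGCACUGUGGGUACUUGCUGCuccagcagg
Mir93: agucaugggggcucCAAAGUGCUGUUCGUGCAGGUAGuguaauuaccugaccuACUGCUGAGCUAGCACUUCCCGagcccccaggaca
Mir25: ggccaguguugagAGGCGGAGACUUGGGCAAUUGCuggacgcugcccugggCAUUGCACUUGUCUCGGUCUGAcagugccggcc
In the array's own annotation (mm9) the probes of the 5 arms span 433 bases, chr5:138606605-138607037. The probes for Mir25 start at 138606605, those for Mir93 at 138606773 and those for Mir106b at 138606981. On both hairpins that have probes for 2 arms, this annotation puts the 5p arm at the lower coordinate, the reverse of what the minus strand gives, so the positions are read only to the level of the hairpin. The first arm of Mir25, miR-25-5p, is also on the array but was not on the list of 5 arms, so it was counted among the relatives.

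The array carries 14 probes for the 5 arms, which are DNA complements of their 3′ portion. The longest and brightest probe of each arm is shown in lower case, because the results for an arm rest on it.
miR-106b-5p, bases 5 to 21: atctgcactgtcagcac
miR-93-5p, bases 8 to 23: ctacctgcacgaacag
miR-25-3p, bases 5 to 22: tcagaccgagacaagtgc
miR-106b-3p, bases 8 to 22: gcagcaagtacccac
miR-93-3p, bases 7 to 22: cgggaagtgctagctc
The probes differ in length and in the stretch they pair with, so signals of different arms are on different scales and are not ranked here. The longest run of perfect pairing with any other mature mouse miRNA was 9 bases for miR-106b-5p (miR-17-5p, miR-18a-5p and miR-106a-5p), 10 bases for miR-93-5p (miR-17-5p, miR-20a-5p, miR-20b-5p and miR-106a-5p) and 10 bases for miR-25-3p (miR-423-3p). An unbroken run leaves out near matches with mismatches inside. Over the mature sequences, miR-25-3p is alike miR-92a-3p at 18 of 21 positions. miR-106b-5p is alike miR-17-5p at 18 of 21 and miR-93-5p is alike miR-20b-5p at 20 of 23. Cross-hybridisation was not tested.

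Whole arrays differed between the groups, which bears on every value that follows. A miRNA was counted as detected by the flag in the scanner files, and 428 ± 17.1 miRNAs were detected on LPS arrays and 219 ± 8.14 on Con arrays (SD, n = 3 each). The 75th percentile of the signal, taken over the 198 miRNAs detected on all 6 arrays, was 2229 ± 180 intensity units in LPS and 477 ± 41.0 in Con. The 4 spiked-in RNAs, added in processing, had a geometric mean of 2377 ± 181 in LPS and 2707 ± 83.9 in Con. For each of these measures the two-sided exact permutation p was 0.1, the smallest that 3 against 3 arrays can give. The source of these differences was not tested, and more vesicles, more miRNA per vesicle and other sources cannot be told apart in such samples. The profiles differed too. Log2 signals of the 198 correlated at 0.596 to 0.612 between an LPS and a Con array, and at 0.998 or more within a group. The main values below are relative to the 75th percentile, so that a change of 0 means moving as that percentile did. All arrays were on 1 slide and in 1 scan, with Con 1 to 3 and LPS 1 in row 1 of the slide and LPS 2 and 3 in row 2.

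Listed myeloid markers were present and the listed markers of other cells were not detected. Of 3 myeloid miRNAs, miR-223-3p and miR-142a-3p were detected on all 6 arrays and miR-142a-5p on the LPS arrays alone, and their summed signal was 742 to 984 in LPS and 89.0 to 101 in Con. Of the LPS-responsive pair, miR-155-5p was higher in LPS by 4.18 on the log2 scale (SE 0.07) and miR-146a-5p by 1.34 (SE 0.06), each detected on all 6 arrays. None of the 4 serum, liver or erythroid markers, the 4 epithelial, the 2 neural or the 3 muscle markers was detected on any array. With signals below 0 counted as 0, their sums were 48.8 to 52.2 in LPS and 23.3 to 28.0 in Con for the serum list, 23.6 to 27.8 in LPS and 3.74 to 7.70 in Con for the epithelial list, 6.47 to 10.4 in LPS and 5.94 to 9.71 in Con for the neural list, and 3.48 to 7.10 in LPS and 12.6 to 14.1 in Con for the muscle list. On the serum, liver or erythroid list, miR-122-5p read 17.5 to 17.6 in LPS and 6.10 to 7.75 in Con. There miR-486a-5p read 11.6 to 19.2 in LPS and -2.23 to -2.01 in Con. The groups overlapped for miR-451a, at 6.94 to 10.9 in LPS and 8.24 to 11.2 in Con. They also overlapped for miR-144-3p, at 5.93 to 10.8 in LPS and 8.38 to 11.6 in Con. The part of other cell types in the results was not tested beyond these values.

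The 3 guide arms, miR-106b-5p, miR-93-5p and miR-25-3p, were detected on every array and rose in LPS exosomes relative to the scaling percentile, by 1.74, 0.56 and 1.19 on the log2 scale. The passenger arms stood at or near background: miR-106b-3p was detected on the LPS arrays but nowhere well above background, and miR-93-3p was detected on no array. The fit covered the 412 miRNAs detected on all 3 arrays of at least 1 group, of which 4 are cluster arms. It called 65.5% of all tested miRNAs higher in LPS and 26.7% lower at an adjusted p of 0.05 or less, so a call of higher was the common outcome with this signal. With normexp background correction, in which an offset of 50 is added before scaling, that split turned round. There 113 were called higher and 284 lower of the 412, and the 3 guide arms were called higher too. Their normexp changes exceeded those of 77.8% (miR-106b-5p), 55.6% (miR-93-5p) and 80.8% (miR-25-3p) of the 198 miRNAs that every array detected. The share of the 198 called higher with normexp was not counted. With the main signal, 58.1% of the 198 were called higher and 38.4% lower.

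miR-106b-5p, the guide arm of Mir106b and a member of the miR-17 seed family, had processed signals of 1095, 1316 and 1332 intensity units on the LPS arrays, against 74.9, 82.1 and 82.4 on the Con arrays. Every LPS array lay above every Con array, and LPS 1 was the lowest of its group. The means were 1248 ± 132 in LPS and 79.8 ± 4.21 in Con (SD, n = 3 each), a ratio of 15.6 before scaling. After scaling, the signal was 557, 578 and 590 in LPS, against 179, 166 and 173 in Con. The groups remained apart, and the LPS arrays drew closer together than before scaling. The scaled means were 575 ± 16.6 in LPS and 172 ± 6.61 in Con, a log2 change of 1.74 (SE 0.05, 3.34-fold, limma with Benjamini-Hochberg adjustment over 412 miRNAs, adjusted p = 1.05e-07).

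miR-93-5p, the guide arm of Mir93 and the other arm with the seed AAAGUGC, had processed signals of 1275, 1625 and 1641 on the LPS arrays, against 199.5, 233 and 226 on the Con arrays. The groups did not overlap, and the means of 1514 ± 207 in LPS and 219 ± 17.7 in Con gave a ratio of 6.90. After scaling, the signal was 649, 714 and 727 in LPS, against 476, 470.2 and 473 in Con. The scaled Con arrays lay within a few units of each other, while LPS 1 lay below the other LPS arrays and nearer to Con. The scaled means were 697 ± 42.0 in LPS and 473 ± 2.83 in Con, a log2 change of 0.56 (SE 0.05, 1.47-fold, limma adjusted p = 6.76e-05).

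miR-25-3p, the guide arm of Mir25 and a member of the miR-25/92 seed family, had processed signals of 3820, 4548 and 4586 on the LPS arrays, against 369, 429 and 418 on the Con arrays. LPS 1 was again the lowest LPS array, and Con 1 the lowest Con array. The means were 4318 ± 432 in LPS and 405 ± 31.8 in Con, a ratio of 10.7. After scaling, the signal was 1944, 1998 and 2032 in LPS, against 880.3, 865 and 878 in Con, with no overlap. The scaled means were 1991 ± 44.4 in LPS and 874 ± 8.46 in Con, a log2 change of 1.19 (SE 0.04, 2.28-fold, limma adjusted p = 1.95e-07).

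**Figure D1:**
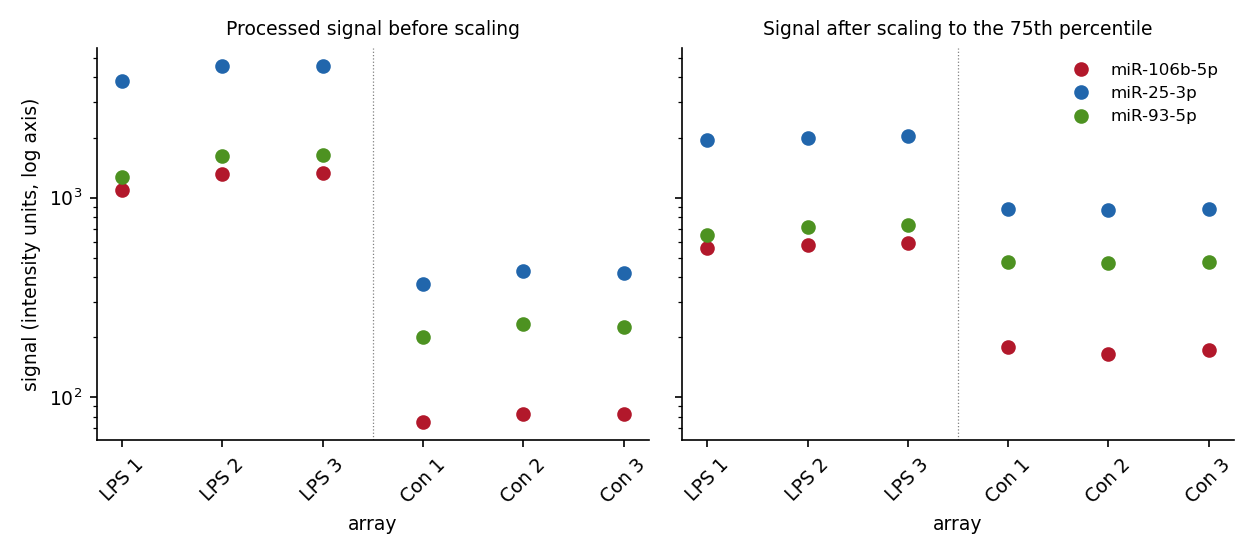
Signal of miR-106b-5p, miR-25-3p and miR-93-5p on each array (x axis, LPS arrays left of Con arrays), before scaling (left panel) and after scaling to the 75th percentile (right panel), in intensity units on a log axis, with each point an array. The groups are apart in both panels, and scaling brings LPS and Con closer by the same factor for every arm, leaving miR-93-5p with scaled means of 697 in LPS and 473 in Con.

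Against the 198 miRNAs detected on all 6 arrays, the guide arms took different places. Their median change was 0.77, and over all 412 tested miRNAs it was 0.85. The change of miR-106b-5p lay 0.97 above the median of the 198 and exceeded that of 83.3% of them. The change of miR-25-3p lay 0.42 above the median and exceeded that of 66.2%. The change of miR-93-5p differed from the median by -0.21 and exceeded that of 44.9% of the 198. miR-93-5p therefore rose against the 75th percentile while lying below the typical miRNA detected on all arrays, though above it with normexp background correction (by 0.27), with the files' gene total signal (by 0.65) and in the authors' value table (by 0.13). Its shorter probe gave a change of 1.32, which also lies above that median. All LPS values above all Con values was also common: 58.6% of the 198 showed it, and 66.3% of the 412.

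The scaling set the size of the changes. Scaled to the 4 spiked-in RNAs, the log2 changes were 4.15 for miR-106b-5p, 2.97 for miR-93-5p and 3.60 for miR-25-3p, and the median of the 198 was 3.18. Without scaling they were 3.96, 2.78 and 3.41, with a median of 2.99. With the 75th percentile over all miRNAs they were 2.93, 1.75 and 2.38, with a median of 1.96. Centred on the median of the 198 before flooring, they were 1.42, 0.24 and 0.87, with a median of 0.45, and after quantile normalization 1.37, 0.25 and 1.01, with a median of 0.32. Under each of these scalings the 3 arms were called higher, which was the common outcome among the 412 tested miRNAs. The number called higher was 370 with spiked-in RNA scaling, 364 without scaling and 337 with the percentile over all miRNAs. It was 251 with median centring and 266 after quantile normalization. The distances of the 3 arms from the median of the 198 were the same as after scaling to the 75th percentile of the 198, except after quantile normalization. With normexp on the mean and background signals (offset 50), which compresses dim signals, the changes were 1.07, 0.38 and 1.13, with a median of 0.11.

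**Figure D2:**
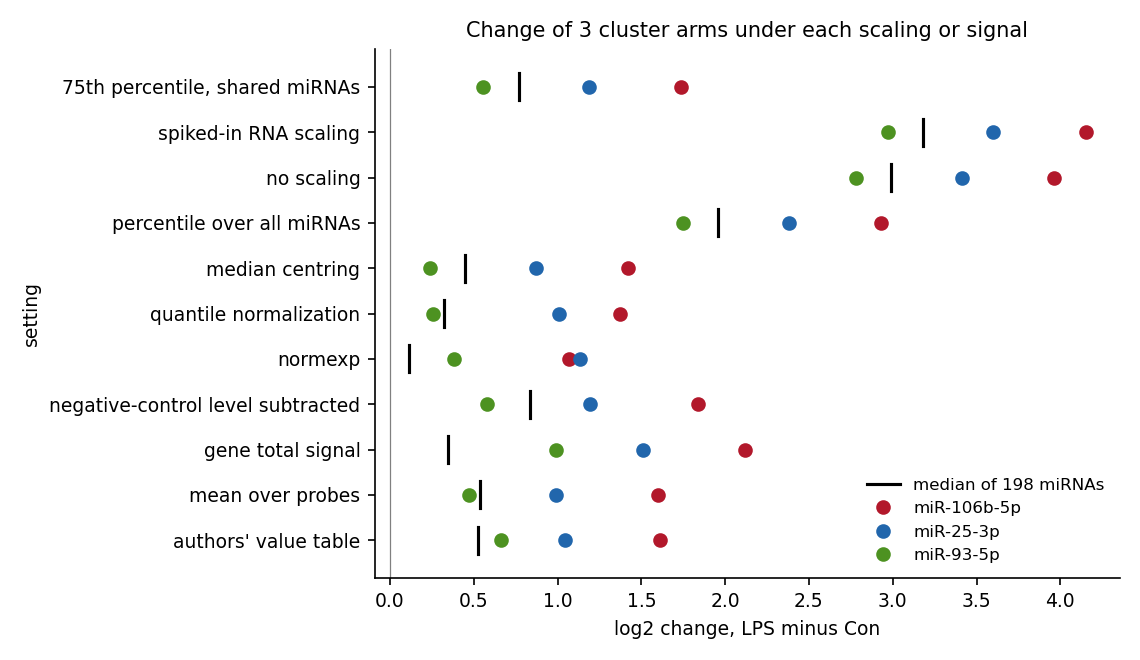
Log2 change, LPS minus Con (x axis), of the 3 guide arms (coloured points) and the median of the 198 miRNAs detected on all 6 arrays (black bars) under each scaling or signal (y axis). All points lie to the right of 0; the median ranges between 0.11 with normexp and 3.18 with spiked-in RNA scaling, and miR-93-5p stays within 0.65 of it.

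The 3 guide arms come from a common transcript, and a ratio of 2 arms within an array does not depend on any factor that multiplies the whole array. Such a ratio compares 2 probes, and both its size and its direction can depend on which probes stand for the arms. The 2 probes of miR-93-5p alone gave scaled log2 changes of 0.56 and 1.32. An unequal change of the arms is therefore not read from a ratio of single probes. The log2 ratio of miR-106b-5p over miR-93-5p was -0.27 ± 0.05 in LPS and -1.46 ± 0.05 in Con (SD, n = 3 each), a difference of 1.18, or 2.27-fold. That of miR-106b-5p over miR-25-3p was -1.79 ± 0.01 in LPS and -2.34 ± 0.04 in Con, a difference of 0.55, or 1.47-fold. That of miR-25-3p over miR-93-5p was 1.52 ± 0.06 in LPS and 0.89 ± 0.01 in Con, a difference of 0.63, or 1.55-fold. In each of the 3 pairs the groups did not overlap, with a two-sided exact permutation p of 0.1, the smallest possible, and 0.1 after Benjamini-Hochberg adjustment over the 3 pairs.

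Groups that do not overlap are the rule for such ratios on these arrays: 94.5% of the 19503 pairs among the 198 miRNAs showed it, and their median absolute difference was 1.81. The difference between miR-106b-5p and miR-93-5p was matched or exceeded in 63.5% of pairs, that between miR-106b-5p and miR-25-3p in 80.9% and that between miR-25-3p and miR-93-5p in 78.6%. In 2 settings a pair turned round. With normexp the difference of miR-106b-5p over miR-25-3p was -0.06, with log2 ratios of -1.73 ± 0.01 in LPS and -1.67 ± 0.06 in Con. With the dimmer probe of each arm, the difference of miR-25-3p over miR-93-5p was -0.14, with ratios of 1.61 ± 0.05 in LPS and 1.75 ± 0.09 in Con and overlapping groups (exact permutation p = 0.2). The ratio of miR-106b-5p over miR-93-5p was higher in LPS in all settings tried, with differences of 0.60 with the dimmer probes to 1.26 with the negative-control level subtracted.

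**Figure D3:**
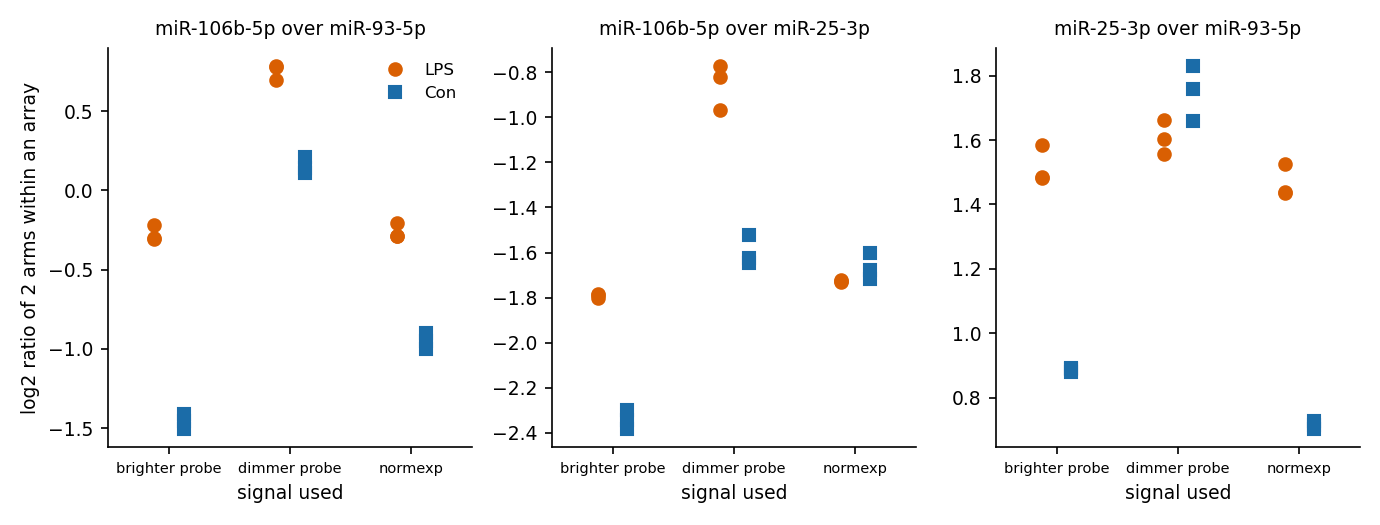
Log2 ratio of 2 guide arms within each array (y axis) for the brighter probes, the dimmer probes and the normexp signal (x axis), with LPS arrays as circles left of Con arrays as squares. miR-106b-5p over miR-93-5p is higher in LPS in all 3 columns, while miR-106b-5p over miR-25-3p turns round with normexp (-0.06) and miR-25-3p over miR-93-5p with the dimmer probes (-0.14).

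The second, shorter probe of each guide arm gave the same direction on a dimmer scale. The 16-base probe of miR-106b-5p read 480, 610 and 631 in LPS, against 30.4, 33.5 and 32.6 in Con, a scaled log2 change of 1.92. The 17-base probe of miR-25-3p read 819, 1190 and 1114 in LPS, against 93.5, 96.2 and 102 in Con, a change of 1.18 that is close to the 1.19 of its longer probe. The 15-base probe of miR-93-5p read 278, 376 and 367 in LPS, against 26.3, 30.5 and 30.2 in Con, a change of 1.32 where its longer probe gave 0.56. The probes of miR-93-5p therefore disagreed on the size of its change. On the Con arrays few spots of the shorter miR-93-5p probe stood well above background, namely 1, 7 and 2 of 14, and for the shorter miR-106b-5p probe 6, 8 and 5 of 15. On the brighter probes every spot of the guide arms did so on every array, with 14 or 15 spots per array, a coefficient of variation between spots of 3.21% to 12.6% and no saturated spot.

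The passenger arms had 4 probes each. For miR-106b-3p only the 15-base probe rose above 0 in LPS, where it read 20.4, 26.0 and 25.7, against -2.68, -2.57 and -3.61 in Con. Its other 3 probes, of 12 to 14 bases, were below 0 on every array, and no spot of any of its probes was well above background. miR-106b-3p was therefore tested, with a log2 change of 0.16 (SE 0.05, limma adjusted p = 0.0204) against Con values all at the floor of 9.89, but it has only a bound in both groups and its direction is not read. The gene total signal listed in the files for miR-106b-3p was 279, 350 and 351 in LPS and 1.47, 1.38 and 1.53 in Con, although the probe totals in the same files summed to 0.01, 0.03 and 0.20 in LPS and were negative in Con. The authors' deposited table put it at 2.62 ± 0.02 in LPS and 2.61 ± 0.04 in Con on its log2 scale.

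miR-93-3p, the passenger arm of Mir93, was not tested because no array detected it. Its 16-base probe read 7.15, 7.52 and 8.71 in LPS, against -4.28, -3.03 and -2.97 in Con, and its 3 shorter probes were below 0 on every array. In the authors' deposited table it stood at 2.64 ± 0.02 in LPS and 2.66 ± 0.02 in Con, next to the column medians of 2.73 to 2.74. So on both Mir106b and Mir93 the 5p arm was measured on every array, while the 3p arm was not well above background on any. The passenger arm of Mir25, miR-25-5p, read -1.24, -2.85 and -3.06 in LPS and 1.08, -3.15 and -2.13 in Con, and was detected nowhere.

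**Figure D4:**
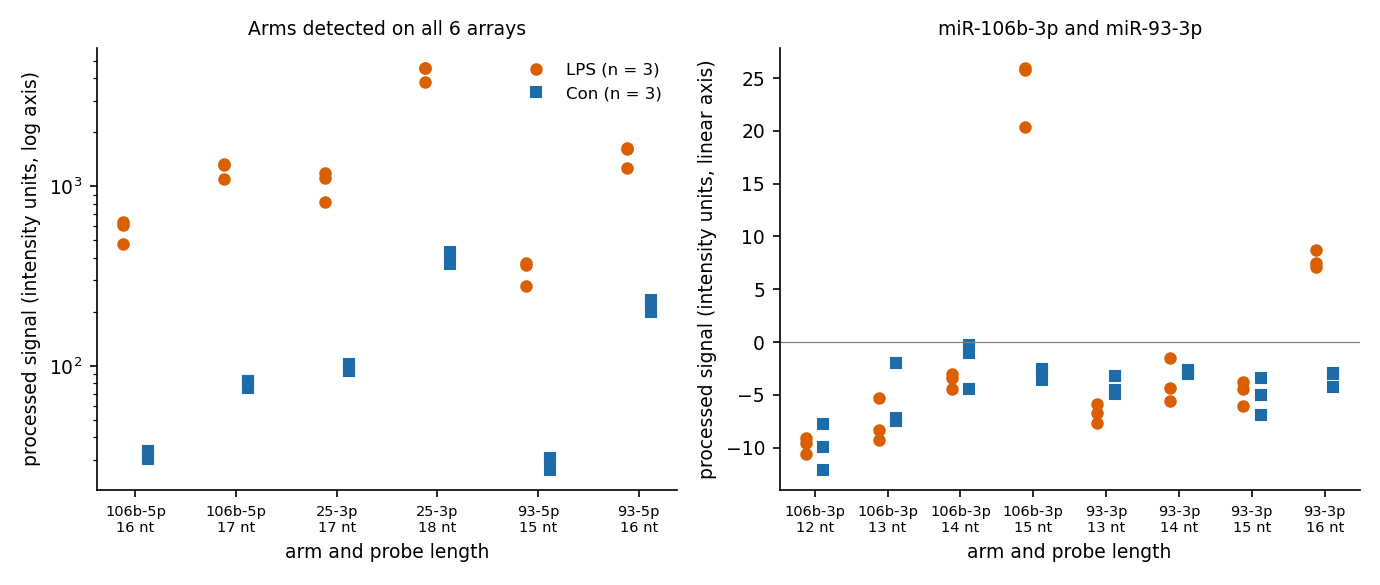
Processed signal (y axis, intensity units) of all 14 probes of the 5 arms, labelled by arm and probe length (x axis), with each point an array, LPS as circles left of Con as squares. The left panel (log axis) holds the 3 guide arms, whose LPS arrays lie above their Con arrays for each probe; the right panel (linear axis) holds miR-106b-3p and miR-93-3p, where only the longest probes rise above 0 in LPS.

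The authors' deposited table gave the guide arms the same direction. miR-106b-5p stood at 8.88 ± 0.04 in LPS and 7.27 ± 0.06 in Con, miR-93-5p at 8.58 ± 0.07 in LPS and 7.92 ± 0.07 in Con, and miR-25-3p at 10.4 ± 0.03 in LPS and 9.33 ± 0.03 in Con (SD, n = 3 each). The differences computed from the authors' deposited table were 1.61, 0.66 and 1.05, and its median difference over the 198 miRNAs was 0.53.

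The paralogue clusters encode relatives of the cluster arms, and the 2 with the seed AAAGUGC that were detected on all arrays read higher in LPS. Of the 4 listed, 3 are named on the array and were tested, and miR-106a-5p is not analysed here. The 2 detected on all arrays were called higher, as were 58.1% of the 198. Their median change was 1.45, beside the 0.77 of the 198. miR-17-5p entered the test through the LPS arrays alone, so its call is not counted. The sequences of the 3 relatives are shown because they differ from the cluster arms at few bases outside the seed.
miR-17-5p: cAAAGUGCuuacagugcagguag
miR-20a-5p: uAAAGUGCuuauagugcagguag
miR-20b-5p: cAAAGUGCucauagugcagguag
miR-20a-5p, of the miR-17-92 cluster, read 5845, 6929 and 7071 in LPS, against 434, 513 and 511 in Con, a log2 change of 1.54 (SE 0.04). miR-20b-5p, of the miR-106a-363 cluster, read 2914, 3655 and 3783 in LPS, against 256, 306 and 297 in Con, a change of 1.36 (SE 0.05). miR-17-5p was detected on the LPS arrays alone, with signals of 263, 420 and 396 in LPS and 6.85, 7.30 and 6.45 in Con. With the main signal after scaling, this makes it at least 2.36-fold higher. Such a bound sets the scaled LPS mean against the lowest signal well above background on the Con arrays. The bound of miR-17-5p did not hold with normexp, where its fitted log2 change was 0.42, a smaller rise than 2.36-fold. miR-106b-5p, miR-20a-5p and miR-20b-5p thus had changes of 1.74, 1.54 and 1.36, and miR-93-5p, with the same seed, had 0.56 on its longer probe and 1.32 on its shorter one.

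In the seed family of miR-25-3p, 1 of 5 relatives was detected. It was miR-92a-3p, of the miR-17-92 cluster, which is shown because it matches miR-25-3p at 18 of its 21 positions.
miR-92a-3p: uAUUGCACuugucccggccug
miR-92a-3p read 8434, 9891 and 9896 in LPS, against 1191, 1333 and 1368 in Con, a scaled log2 change of 0.63 (SE 0.04), with no overlap. miR-25-3p had a change of 1.19. miR-92b-3p, miR-32-5p, miR-363-3p and miR-367-3p were detected on no array, with signals of at most 12.5.

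Of the 9 other arms of these clusters, 5 were tested, and the 3 detected on all arrays were called higher, with a median change of 1.04 beside the 0.77 of the 198. miR-18a-5p read 965, 1179 and 1197 in LPS, against 69.5, 76.2 and 76.2 in Con, a change of 1.68 (SE 0.05). miR-19a-3p changed by 0.83 (SE 0.04) and miR-19b-3p by 1.04 (SE 0.03), both from signals above 100 on every array. miR-17-3p, the arm opposite miR-17-5p, was detected on the LPS arrays alone, with signals of 138, 169 and 170 in LPS and 12.5, 15.9 and 12.5 in Con. Its bound was 1.06-fold, and with normexp its fitted change was -0.54, so its direction is not read. miR-18a-3p was also detected on the LPS arrays alone, but its bound lay below 1 and its direction is not read. The other 4, miR-18b-5p, miR-20a-3p, miR-92a-1-5p and miR-25-5p, were detected nowhere. Beside these counts, 58.1% of the 198 miRNAs were called higher. With normexp 113 of the 412 were called higher, and the share among the 198 was not counted. There miR-20a-5p, miR-20b-5p, miR-92a-3p, miR-18a-5p, miR-19a-3p and miR-19b-3p, all detected on every array, were called higher. Their normexp changes were 0.60 to 1.51, beside a median of 0.11 for the 198. miR-17-5p, detected on the LPS arrays alone, was also called higher, and miR-17-3p and miR-18a-3p were called lower.

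**Figure D5:**
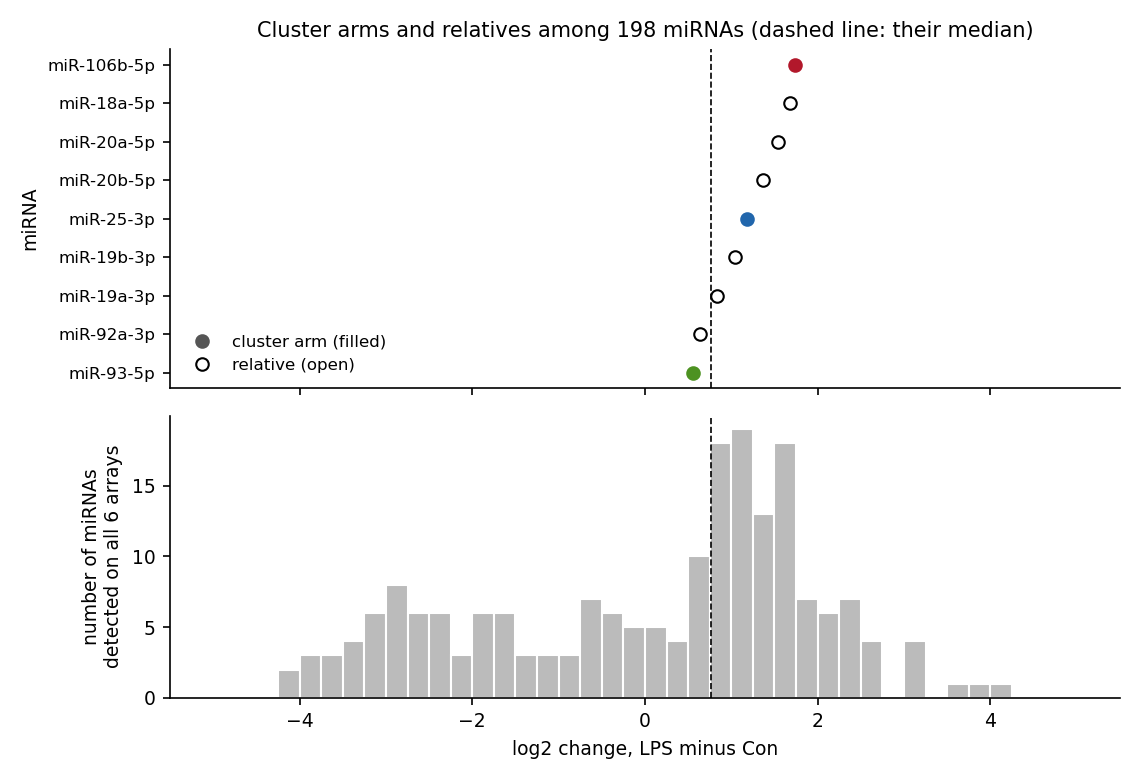
Log2 change, LPS minus Con (x axis), of the 3 guide arms (filled) and of 6 relatives detected on all 6 arrays (open), above a histogram of the 198 miRNAs detected on all 6 arrays (y axis, number of miRNAs). All 9 lie to the right of 0, between miR-93-5p at 0.56 (longer probe) and miR-106b-5p at 1.74, on both sides of the dashed median of 0.77.

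The miRNAs whose scaled values over the 6 arrays lay nearest to those of each guide arm, each centred on its own mean, came from outside the listed relatives, which were not eligible. For miR-106b-5p they were miR-361-5p, let-7f-5p and miR-23b-3p, at root mean square distances of 0.0202, 0.0305 and 0.0411 on the log2 scale. For miR-25-3p they were miR-24-3p, let-7i-5p and let-7b-5p, at 0.0256, 0.0302 and 0.0413. For miR-93-5p they were miR-378b, miR-96-5p and miR-378d, at 0.0563, 0.0857 and 0.0861. Between cluster arms the distances were 0.277 for miR-106b-5p and miR-25-3p, 0.317 for miR-93-5p and miR-25-3p and 0.593 for miR-106b-5p and miR-93-5p. The nearest miRNAs were picked for their small distances, so they are no standard for the distances between cluster arms. With 2 groups of 3 arrays this distance mostly reflects the size of the change between the groups.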

How the data were processed

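The deposited scanner files hold linear intensity values per spot, background-subtracted by Agilent Feature Extraction 10.7.1.1 per the file headers, while the submitters' processing notes name version 9.1. A value table from the authors, deposited with the series, is on a log2 scale; its direction, rising with signal, was checked against the processed signal of each array (r = 0.896 to 0.963 across the 198 miRNAs), and its normalization and centring are not given in the sources used here. Cluster arms, relatives and markers were listed with earlier results of these data known.

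Spots of a probe, outliers left out, were averaged on the processed signal, and the probe with the highest mean stood for its miRNA. Arrays were divided by the 75th percentile of the 198 miRNAs that all arrays detected, floored at 9.89 (3.31 on the log2 scale) and log2-transformed. LPS minus Con was fitted with limma 3.58.1 in R 4.3.3 (lmFit and eBayes, Benjamini-Hochberg adjustment over 412 miRNAs, threshold 0.05), after tests on simulated data. Ratios and array measures were compared by two-sided exact permutation tests (scipy 1.17.1). A probe was well above background when at least 50% of its spots carried that flag. The number of arrays limits the precision. Named miRNAs were the 5 arms, 3 lists of relatives and the 3 nearest miRNAs of each guide arm. Alternatives covered scaling, background, signal, probe choice, floor, filter, variance, blocks and leaving out each array. Same-numbered LPS and Con arrays correlated at -0.401 to -0.221 in their deviations from the group means. With 3 arrays per group such correlations depend on each other, so they cannot settle whether the numbers pair the arrays. The main fit did not pair them.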

Additional observations from a re-analysis of the deposited data

How the results depend on the processing

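The calls of miR-106b-5p, miR-93-5p and miR-25-3p kept their direction and side of the threshold in all 25 alternatives each. Many of these could not change the direction. Other floors, filters, the variance setting and the replicate block left the 3 log2 changes as they were, so only the adjusted p could differ. Leaving out each array in turn gave log2 changes of 1.67 to 1.76 for miR-106b-5p, 0.47 to 0.61 for miR-93-5p and 1.10 to 1.20 for miR-25-3p, and 264 to 272 miRNAs called higher and 108 to 119 called lower, against 270 and 110 with all arrays, of 412 tested. With the replicate number as a block the counts stayed at 270 higher and 110 lower, with adjusted p of 2.05e-05, 0.000911 and 3.44e-05 for miR-106b-5p, miR-93-5p and miR-25-3p. With the slide row as a block the 3 changes were 1.69, 0.46 and 1.15, and within row 1, where LPS has 1 array that is assumed to vary like Con, 1.73, 0.49 and 1.19. The counts called higher and lower were 337 and 59 with the percentile over all miRNAs, 364 and 39 without scaling, 370 and 38 with spiked-in RNA scaling and 113 and 284 with normexp. Of the 198 miRNAs detected on all arrays 115 were called higher, and without a detection filter 269 of 1881 were called lower. The causes were not tested.

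With normexp, miR-106b-3p (-0.53), miR-17-3p (-0.54) and miR-18a-3p (-0.76) turned lower; all lie at or near background in Con. The call of miR-106b-3p was lost in 6 alternatives, among them double the floor and the authors' value table, and without LPS replicate 2 (adjusted p = 0.0922). The differences between arms, in the order miR-106b-5p over miR-93-5p, miR-106b-5p over miR-25-3p and miR-25-3p over miR-93-5p, were 0.69, -0.0605 and 0.75 with normexp, 1.13, 0.61 and 0.52 with the gene total signal or the mean over probes, and 0.60, 0.74 and -0.14 with the dimmer probes. In the same order the first and last were 0.95 and 0.38 in the authors' value table and 1.24 and 0.70 within row 1, and the first and second were 1.26 and 0.65 with the negative-control level subtracted. Leaving out each array gave 1.15 to 1.21, 0.53 to 0.57 and 0.60 to 0.65. Subtraction of the negative controls and the dimmer probes were chosen after seeing the data.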
